A study of Drosophila melanogaster and Drosophila simulans with 21 samples.

Results

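The aminoacyl tRNA synthetase genes were followed in adult females of 3 kinds of fly: hybrid daughters of D. melanogaster Canton S mothers and D. simulans Sim-1 fathers, virgin D. simulans Sim-1 females, and virgin D. melanogaster Canton S females. Females of every group were frozen after 5 to 6 days of separate storage, parental stocks lived at 25 C, and the crosses within and between species took place at 18 C. A probe position was taken as a member if its gene carried a symbol of 3 letters plus RS, with or without -m for mitochondrial, or an older symbol beginning with Aats-. This rule found 7 genes, GlnRS (CG10506), CysRS (CG8431), AsnRS (CG10687), IleRS (CG11471), LeuRS (CG33123), TyrRS (CG4561) and LeuRS-m (CG7479), each with a single position. The subunit genes alpha-PheRS (CG2263) and beta-PheRS (CG5706), whose symbols carry a prefix, were added. That gave 9 genes out of 1778 named on the array. The position of alpha-PheRS held no value on any array, so 8 genes were measured: 7 cytosolic enzymes and the mitochondrial LeuRS-m. All 8 passed the filter on missing values. The gene table lists 35 genes of this family, of which 26 had no named position and were not analysed here. The family was selected on the log2 ratios of these same arrays, with the hybrid values of GlnRS and CysRS in view. All member values are therefore given as a description, no p-value is attached to a member, and nothing is read from a share of members called.

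Each synthetase joins an amino acid to its matching tRNA, so that the ribosome reads codons with the right residue. Cytosolic and mitochondrial translation use separate enzymes in most cases, encoded by different nuclear genes. The enzymes fall into class I, to which those for glutamine, cysteine, isoleucine, leucine and tyrosine belong, and class II, to which those for asparagine and phenylalanine belong. In animals, the glutaminyl, isoleucyl and leucyl enzymes are also held in a large complex with several others. The adult ovary, where egg proteins and ribosomes are built up, is a major site of translation in a female fly.

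RNA of adult females, from 2 cohorts per cross, was pooled by strain before labelling, and each pair of pools was hybridised to 6 spotted 2-colour arrays, 3 in each channel orientation. A further 3 arrays carried a single pool in both channels. The 18 arrays with 2 RNAs are technical repeats of 3 pools, so every error below measures the spread between arrays, and a difference of strains cannot be told apart from a difference of pools. In whole-body RNA, fewer cells of a type and less RNA per cell cannot be told apart either. Each array held 4657 to 4946 measured positions, and values are log2 ratios after subtraction of the array's median, so 0 is the median position and not an unchanged level. Replicate 2 of the arrays with D. simulans and D. melanogaster RNA stood apart, with a median correlation of 0.478 across positions with its 5 repeats, against 0.649 to 0.926 for the other 17 arrays. Where it decides a value below, the value without it follows.

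The labels do not state which channel is the numerator of the ratio. Signs below divide channel 1 by channel 2. That choice was made with the values known, because it places germline genes lower in the hybrid and the largest parental ratios on the D. melanogaster side. The direction is not settled by this. With channel 2 over channel 1 every sign turns and every size stays. Independent of that choice, all 8 synthetases lay on the same side of the parental mean in the hybrid as the germline gene BigH1, and on the opposite side from the fat body gene apolpp. By the rule given below, 42.3% of everything tested was called on the side of BigH1 and 43.0% on the other. BigH1 and apolpp were the furthest from 0 in their marker lists, where ovo stood at -0.02 and Lsd-2 at 0.26. Arrays of the same pair correlated from -0.93 to -0.46 when their channels were swapped.

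Against D. melanogaster, the maternal species, all 7 cytosolic synthetases were called lower in hybrid females, and LeuRS-m was not called. A gene was called where the limma model over all 4753 genes and unnamed positions gave a Benjamini-Hochberg adjusted p under 0.05. By that rule 83.8% of all of them were called, 41.8% lower and 42.0% higher. GlnRS, which charges the glutamine tRNA, read -1.03, -0.97, -0.94, -0.94 and -0.50 on the 5 arrays that measured it. Every array put the hybrid below D. melanogaster, and replicate 2 was nearest to 0. The model value was -0.94 ± 0.076 (SE), a 1.91-fold difference. CysRS, which charges the cysteine tRNA, ranged from -1.04 to -0.73 with a median of -0.87 over 6 arrays. This was the tightest set in the family, with a mean of -0.89 ± 0.11 (SD, n = 6) and a model value of -0.89 ± 0.077 (SE). Where a single RNA was in both channels, members spanned a range of -0.21 to 0.43 over 23 values. No array of GlnRS, CysRS or, below, beta-PheRS entered that range. The values of GlnRS and CysRS were in view when the family was chosen, so this only describes them. That range is channel 1 over channel 2, whereas the values here are turned to hybrid over D. melanogaster.

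For beta-PheRS, the subunit of the phenylalanine enzyme that holds its editing site, the 6 arrays gave -1.11 at the lowest, a median of -0.77 and -0.57 at the highest, with a model value of -0.87 ± 0.077 (SE). IleRS, the isoleucine enzyme, spread more widely, from -1.07 to -0.17 with a median of -0.73, and its model value was -0.65 ± 0.098 (SE). Its highest array overlapped the single-RNA range, as did the highest arrays of LeuRS, AsnRS and TyrRS. The cytosolic leucine enzyme LeuRS read -0.99, -0.73, -0.53, -0.38 and -0.19 on 5 arrays, and its model value was -0.48 ± 0.11 (SE). AsnRS, which charges the asparagine tRNA, ranged from -0.79 to 0.07 with a median of -0.43, so 1 array of 6 lay on the other side, and the model gave -0.43 ± 0.082 (SE). TyrRS, the tyrosine enzyme, had the smallest cytosolic difference, from -0.52 to -0.11 with a median of -0.36, and a model value of -0.40 ± 0.068 (SE). In all, 6 of 8 members had every direct array below 0, as had 35.7% of all genes and positions, and none had every array above 0, as had 34.4%. The cytosolic median was -0.65, against 0.02 over everything tested, which is near 0 because array medians were subtracted. In size, the median was 0.65 for the cytosolic members and 0.67 over everything tested. Scaling the arrays to a common spread took AsnRS to -0.11 and ended its call, while GlnRS then stood at -0.56 and LeuRS at -0.29. Among arrays with title numbers 1 to 8 alone, AsnRS stood at -0.17 and LeuRS at -0.16, neither called, against -0.65 and -0.78 with title numbers 14 to 18 alone.

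**Figure D1:**
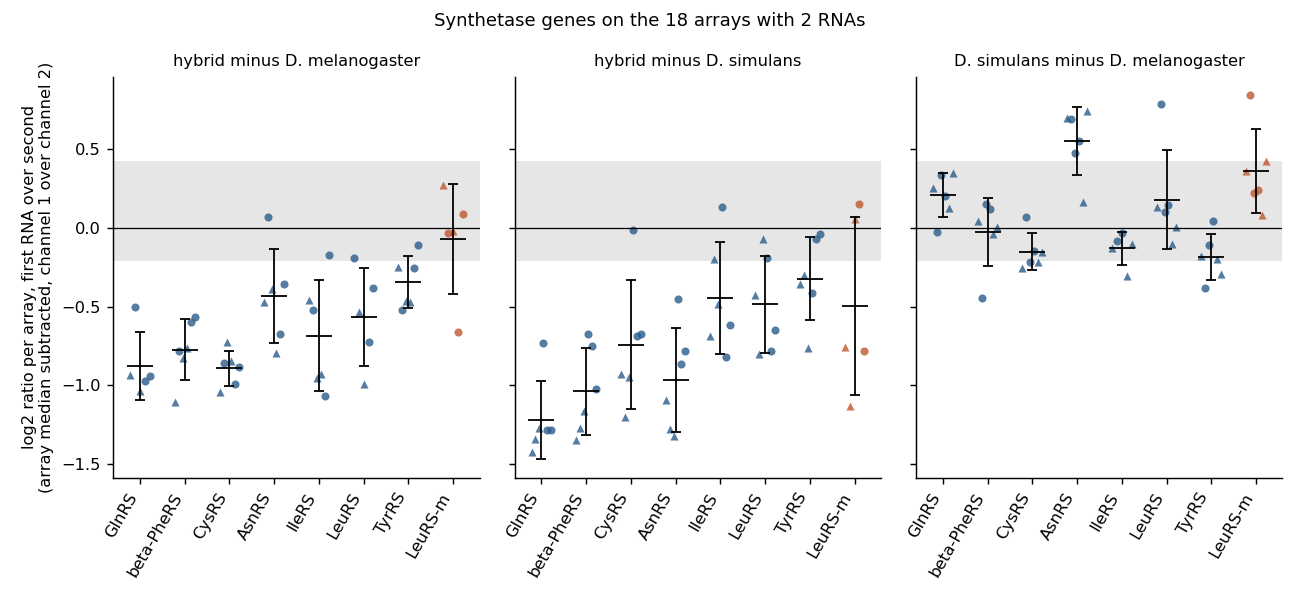
Each point is 1 array, as the log2 ratio of the first RNA over the second after subtraction of the array median, with the channel 1 over channel 2 reading. Circles have the first RNA in channel 1 and triangles in channel 2, and orange marks the mitochondrial LeuRS-m. Bars are the mean and SD over 5 or 6 arrays. Grey shading spans the members' values on single-RNA arrays as channel 1 over channel 2, so its sign is reversed for triangles. GlnRS, beta-PheRS and CysRS sit below 0 on every array with hybrid RNA, whereas LeuRS-m lies on both sides.

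Against D. simulans, the paternal species, all 8 synthetases were called lower in hybrid females. LeuRS-m was among them, although 2 of its 5 arrays lay above 0. Of all genes and positions 82.2% were called, 40.7% lower and 41.5% higher. GlnRS differed most, from -1.43 to -0.73 with a median of -1.29 over 6 arrays, and the model gave -1.18 ± 0.072 (SE), or 2.27-fold. The 5 arrays other than replicate 4 lay close together, from -1.43 to -1.27. AsnRS ranged from -1.32 to -0.45 with a median of -0.98 and had a model value of -0.97 ± 0.082 (SE). Its hybrid difference from D. simulans was thus larger than that from D. melanogaster, and the gap is the parental difference given below. For beta-PheRS the range was -1.35 to -0.67, the median -1.09 and the model value -0.94 ± 0.077 (SE). CysRS spread from -1.20 to -0.01 with a median of -0.81, and its model value was -0.74 ± 0.077 (SE). The highest value came from replicate 4, which was also the highest array for GlnRS, beta-PheRS, AsnRS, IleRS and LeuRS-m.

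LeuRS ranged from -0.80 to -0.07 with a median of -0.54, and the model gave -0.57 ± 0.101 (SE). IleRS ranged from -0.82 to 0.14 with a median of -0.55, against a model value of -0.48 ± 0.098 (SE). TyrRS was again the smallest, from -0.76 to -0.04 with a median of -0.33 and a model value of -0.27 ± 0.068 (SE). All TyrRS arrays were below 0, but 2 of them by under 0.1. Altogether 6 members had every direct array below 0, against 33.1% of all genes and positions, and none every array above 0, against 33.2%. The cytosolic median was -0.74, and the median size was 0.74 against 0.61 over everything tested. Scaling to a common spread moved that median to -0.45. In the same setting CysRS stood at -0.45 and IleRS at -0.30, while TyrRS stood at -0.14 and was not called.

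Set against the average of the parents on the log2 scale (the parental mean), the family ranked from the largest difference as GlnRS at -1.06 ± 0.064 (SE), beta-PheRS at -0.91 ± 0.067, CysRS at -0.82 ± 0.066, AsnRS at -0.70 ± 0.071, IleRS at -0.56 ± 0.084, LeuRS at -0.52 ± 0.090, TyrRS at -0.33 ± 0.059 and LeuRS-m at -0.28 ± 0.12. Over both sets of arrays with hybrid RNA together, each neighbour in this order differed from the next by less than the SD, which there includes the difference between the sets. Within a set, some neighbours were apart by more than the SD. AsnRS minus CysRS averaged 0.46 ± 0.30 (SD, above 0 on 6 of 6 arrays) with D. melanogaster and -0.23 ± 0.15 (SD, above 0 on 0 of 6) with D. simulans, so their order turned with the parent. With D. simulans, CysRS exceeded beta-PheRS by 0.30 ± 0.23 (SD) and IleRS exceeded AsnRS by 0.52 ± 0.40 (SD), each on 6 of 6 arrays. There beta-PheRS also exceeded GlnRS on 6 of 6 arrays, by 0.19 ± 0.19 (SD), about as much as the SD. The remaining neighbours, such as LeuRS and IleRS, differed by less than the SD in both sets. The distance between the ends of the cytosolic order was larger than that spread, as TyrRS exceeded GlnRS by 0.74 ± 0.39 (SD) on average and on 10 of 11 arrays. All 8 members were called lower than the parental mean, where 85.3% of everything tested was called, 42.3% lower and 43.0% higher. With title numbers 1 to 8 alone 6 members were called, LeuRS stood at -0.27 and was not, and with 14 to 18 alone it stood at -0.80. GlnRS had 12.2% of all genes and positions below it, CysRS 18.4% and TyrRS 35.7%. The family thus lay in the lower part of the distribution but not at its end, and with the sign turned the same shares lie above these genes and the family lies in the upper part.

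The hybrid level of the 7 cytosolic genes was called below both parents, as it was for 36.2% of everything tested, and LeuRS-m was not. No member was above both parents, where 36.0% of everything tested was. Scaling to a common spread, and likewise title numbers 1 to 8 alone, left 5 members below both parents. By the symbol rule alone, without beta-PheRS, this was 6 of 6 cytosolic genes, with a median of -0.63 against the parental mean. The class I enzymes spanned -1.06 to -0.33 among cytosolic members and the class II enzymes -0.91 to -0.70, so the classes overlapped. The genes whose products sit in the multi-enzyme complex, GlnRS, IleRS and LeuRS, also covered much of the range, from -1.06 to -0.52. These groupings were made after the values were known.

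**Figure D2:**
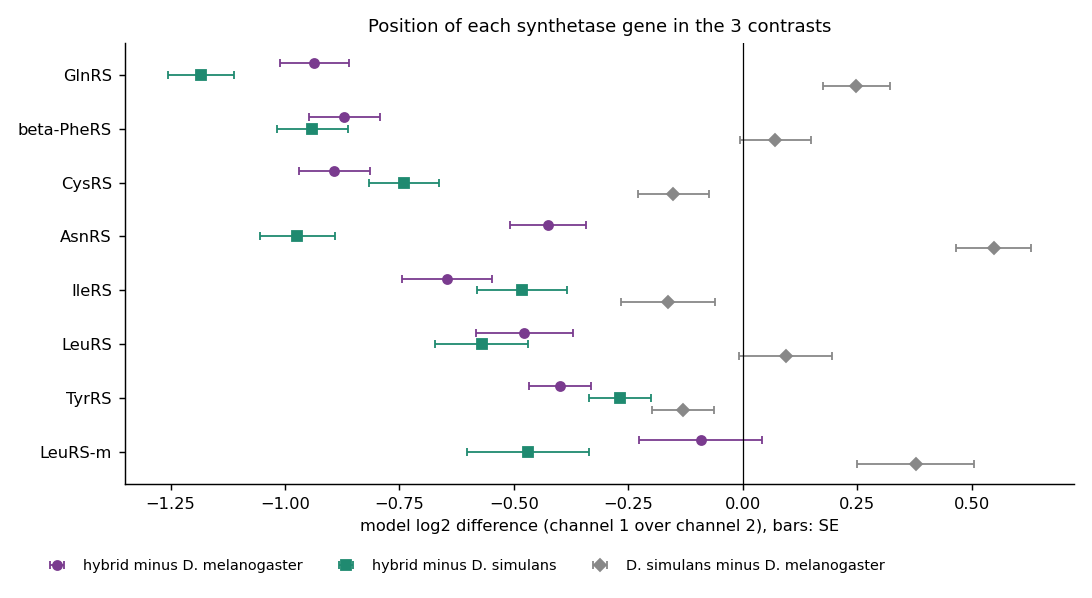
Model log2 differences of the 8 measured synthetase genes with SE bars, in the channel 1 over channel 2 reading, ordered from the largest hybrid difference at the top. Circles (hybrid minus D. melanogaster) and squares (hybrid minus D. simulans) are all left of 0, and their horizontal gap, plotted as diamonds (D. simulans minus D. melanogaster), is widest for AsnRS at 0.55.

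Between the parents, the 8 synthetases differed by a median of 0.16 in size, against 0.21 over everything tested. AsnRS was 1.46-fold higher in D. simulans than in D. melanogaster, GlnRS 1.19-fold and LeuRS-m 1.30-fold. The other 5 members were not called. Of everything tested, 46.8% was called, 23.2% higher and 23.5% lower in D. simulans. AsnRS was above 0 on all 6 direct arrays, from 0.16 to 0.74 with a median of 0.62, and its model value was 0.55 ± 0.082 (SE). With title numbers 14 to 18 alone it was 0.34. GlnRS ranged from -0.02 to 0.35 with a median of 0.23, and the model gave 0.25 ± 0.072 (SE). None of its arrays was larger in size than the largest single-RNA value, 0.43. With title numbers 1 to 8 alone GlnRS stood at 0.28 but was not called.

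LeuRS-m was above 0 on 6 of 6 arrays, from 0.08 to 0.84 with a median of 0.30, with a model value of 0.38 ± 0.13 (SE). Its highest array was replicate 2, the array that stood apart, and without it the value was 0.32 and no longer called. With title numbers 14 to 18 alone LeuRS-m stood at 0.23 and was not called either. The uncalled members were LeuRS at 0.09 ± 0.101 (SE), beta-PheRS at 0.07 ± 0.077, TyrRS at -0.13 ± 0.068, CysRS at -0.15 ± 0.077 and IleRS at -0.16 ± 0.103. Without replicate 2, beta-PheRS stood at 0.15 and was called. Without replicate 3 of the hybrid and D. simulans arrays, TyrRS stood at -0.16 and was called. IleRS was below 0 on all 5 arrays that measured it, between -0.31 and -0.03. All direct arrays lay above 0 for AsnRS and LeuRS-m and below 0 for IleRS, against 20.0% and 22.2% of everything tested. The cytosolic median was 0.07, and the arrays of this pair alone gave -0.03.

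LeuRS-m was the sole mitochondrial synthetase measured, so nothing below holds for mitochondrial enzymes in general. Against D. melanogaster the arrays read 0.28, 0.09, -0.02, -0.03 and -0.66, with a model value of -0.09 ± 0.13 (SE). Hybrid values thus fell on both sides of 0, and 4 of 5 were smaller in size than the largest single-RNA value, 0.43. Against D. simulans they read 0.15, 0.05, -0.75, -0.78 and -1.13, with a model value of -0.47 ± 0.13 (SE). The values split by title number, as the 2 arrays with title number 4 lay above 0 and those with 1 and 17 below. With this pair fitted on its own LeuRS-m stood at -0.46 and was not called. Its call against the parental mean was lost without replicate 5 of the hybrid and D. melanogaster arrays, at -0.21. It was also lost without replicates 1, 2 or 5 of the hybrid and D. simulans arrays, at -0.25, -0.20 and -0.24. Scaling to a common spread ended this call at -0.18, title number as a random effect at -0.24, and fitting each pair on its own at -0.28. With title numbers 1 to 8 alone the value was -0.09 and not called, and with 14 to 18 alone -0.54.

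Set against the 7 cytosolic genes on the same arrays, LeuRS-m was above their median on 5 of 5 arrays of hybrid and D. melanogaster RNA, by 0.54 ± 0.34 (SD). With D. simulans it was above on 4 of 5, by 0.36 ± 0.42 (SD), which is within the spread. On the arrays of D. simulans and D. melanogaster RNA, without hybrid RNA, it was above on 6 of 6, by 0.33 ± 0.27 (SD). Against LeuRS, the enzyme for the same amino acid in the cytosol, it was higher on 4 of 4 arrays with D. melanogaster, by 0.30 ± 0.22 (SD), and on 2 of 5 with D. simulans, where the mean was -0.04 ± 0.29 (SD). Between the parents, LeuRS-m minus LeuRS was above 0 on 6 of 6 arrays, by 0.18 ± 0.13 (SD). The leucine enzymes of the cytosol and the mitochondrion were thus separated beyond the spread with hybrid and D. melanogaster RNA. They were also separated beyond it between the parents, but not with hybrid and D. simulans RNA.

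Other genes of translation on the array did not all move as the synthetases did. The gene for the release factor eRF1, which ends translation at stop codons, was lower in the hybrid by a similar amount, -0.91 ± 0.064 (SE) against D. melanogaster and -0.92 ± 0.064 against D. simulans. GatA, a subunit of the amidotransferase that makes mitochondrial glutaminyl tRNA, stood at -0.37 ± 0.088 and -0.38 ± 0.088 in the same order. Each was the only measured member of its list. Among 5 genes of tRNA processing and modification, 4 were lower than the parental mean and none was called higher. They were Pus7, a pseudouridine synthase, at -1.39, the queuine transferase gene Tgt at -0.99, the Elongator gene Elp6 at -0.80 and Rtca, an RNA cyclase gene, at -0.38. The splicing endonuclease gene Tsen15 stood at -0.09 and was not called. The list median was -0.80, close to the cytosolic synthetase median of -0.70 in the same contrast.

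Of 7 initiation factor genes, 2 were lower than the parental mean and 5 were not called, with a median of -0.03. The lower ones were eIF2Bepsilon, part of the exchange factor of eIF2, at -0.53 and eIF3j at -0.24. The values of eIF2D, eIF3h and eIF2Balpha lay at 0.00 to 2 decimals. The 2 parents differed here. Against D. simulans 4 of the 7 were called lower and 3 not called, with a median of -0.22. Against D. melanogaster 2 were lower, eIF3m was higher at 0.31 and 4 were not called, with a median of 0.05. Against the parental mean, the 4 genes for cytosolic ribosomal proteins had a median of 0.06, with RpS12 higher at 0.23 and RpL32, RpS28b and RpS10a not called. Both measured genes of mitochondrial ribosomal proteins were lower, mRpL16 at -1.15 and mRpL54 at -0.84. LeuRS-m, which charges tRNA for the same ribosomes, stood at -0.28. Whether these lists differ from the synthetases was not tested.

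Genes tied to amino acid supply went in different directions. The gene crc, which encodes the fly ATF4, a transcription factor of the response to amino acid shortage, was higher than the parental mean at 1.06 ± 0.068 (SE). JhI-21, an amino acid transporter gene, was lower at -1.10 ± 0.078, and Cbs, the cystathionine beta-synthase gene of cysteine synthesis, lower at -1.71 ± 0.080. The transporter gene gb at -0.16 and the aspartate aminotransferase gene Got2 at -0.02 were not called. In mammals ATF4 is known to raise transcription of many synthetase genes. Here crc and the 8 synthetases lay on opposite sides of the parental mean, in either reading of the sign. Whether crc has a part in the synthetase differences was not tested.

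Tissue markers also differed between the hybrid and its parents. Of 6 female germline and ovary genes, 5 were lower than the parental mean, from BigH1 at -4.49 and pch2 at -2.65 to c(3)G at -0.75, while ovo, an ovary regulator, stood at -0.02 and was not called. Genes of this list helped to choose the sign, so it is not independent evidence of its direction. All 5 fat body genes were higher, from Lsd-2 at 0.26 to apolpp at 2.75, and so were all 4 muscle genes, from up at 0.98 to Prm at 1.34. Of the 2 testis genes, ocn was higher at 0.70 and janB, at 0.32, was not called. The part of tissue makeup in the synthetase differences was not tested.

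**Figure D3:**
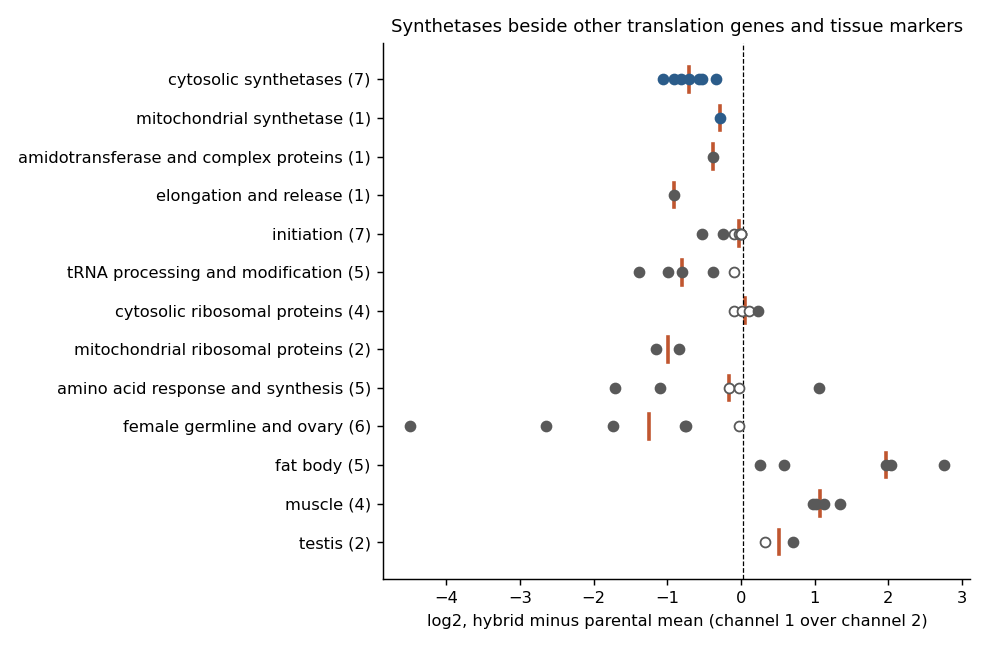
Model log2 values of hybrid minus parental mean, in the channel 1 over channel 2 reading, for the synthetases and for lists of other translation genes and tissue markers, with the number measured in brackets. Each dot is a gene, open where not called, orange bars are list medians, and the dashed line is the median of everything tested at 0.02. Cytosolic synthetases lie from -1.06 to -0.33, initiation factors from -0.53 to 0.00 and fat body genes from 0.26 to 2.75.

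The named genes most like each member were found by the root mean square difference of log2 ratios over the 18 arrays with 2 RNAs, with at least 16 arrays shared. For GlnRS they were fliI, JMJD6, CoRest, Pop1 and RhoGAP5A, at 0.21 to 0.23, where the median named gene was at 0.98. Pop1 encodes a subunit of the ribonucleases that process tRNA and ribosomal RNA precursors, and CoRest a corepressor. For CysRS they were CG8569, Tbcd, disp, GAPsec and Rbsn-5, at 0.20 to 0.21, against a median of 0.84. For beta-PheRS they were Nost at 0.13, then CG17712, hng1, CG8569 and eRF1, and for AsnRS Nrt, mre11, Ocrl, Dis3 and GlcAT-I, at 0.26 to 0.30.

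For IleRS, the isoleucine enzyme, the nearest genes were Rassf, LeuRS, barc, Mtr4 and Cdk12, so that LeuRS, at 0.29, ranked second among all named genes. Among pairs with at least 16 shared arrays, this was the only case in which a synthetase was among the 5 nearest to another. LeuRS-m shared fewer arrays than that with LeuRS and with IleRS, so its likeness to these genes was not ranked. For LeuRS they were Mtr4 at 0.17, Nprl2, CG6650, CG1407 and CG13850, and IleRS ranked 11. For TyrRS they were mfrn, CG11247, Dhdds, RhoBTB and mop, at 0.19 to 0.20, and for LeuRS-m Nup107, Nprl2, Hsp60B, Sec13 and GlcAT-I, at 0.32 to 0.37. Among the synthetases, beta-PheRS was nearest to GlnRS, at 0.27 and rank 15, and to CysRS, at 0.31 and rank 44. These arrays share 3 RNA pools, so the ranks describe likeness on these arrays and no more.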

How the data were processed

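The authors deposited 1 linear ratio of the 2 channels per probe position and array, with no numerator, scanner, background step or normalization given in the sources used here. Per the labels, parental stocks were kept at 25 C, crosses took place at 18 C, and females were stored 5 to 6 days before freezing. RNA extractions were pooled by strain, and cDNA was labelled with Cy3 or Cy5. No channel intensity was analysed, so the brightness of a spot is unknown and the number of arrays limits precision.

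Of 6101 positions, 1943 had 1 symbol, 67 several and 4091 none, and 1145 held no value. Symbols came from the platform annotation, updated through a Release 6 plus ISO1 MT gene table. Ratios were put on the log2 scale, array medians subtracted, and positions of a gene averaged. Features with at least 4 of 6 values per pair (4753, of which 1384 named) entered a model over 18 arrays with a channel term (limma 3.58.1 in R 4.3.3, two-sided, Benjamini-Hochberg, threshold 0.05), tested on simulated data. Each contrast was refitted exactly, with missing values left out. Named genes were all measured members, the 5 nearest genes per member, and members of preset lists (GatCAB and complex proteins, elongation and release, initiation, tRNA processing, cytosolic and mitochondrial ribosomal proteins, amino acid response, and germline, fat body, muscle and testis markers). Lists over 8 measured would have been shortened; none was. Members and lists were chosen with earlier results of these data known.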

Additional observations from a re-analysis of the deposited data

Results flagged for a closer look

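Of 24 sets of 5 or 6 direct array values of the synthetases, 5 had an array whose gap to the nearest of the others took up more of the range than Dixon's critical value allows. Chance flags about 1 in 20 sets. For GlnRS on arrays of hybrid and D. melanogaster RNA, replicate 2 was highest at -0.50, where the other 4 averaged -0.97 ± 0.045 (SD). For GlnRS on arrays of hybrid and D. simulans RNA, replicate 4 was highest at -0.73, where the other 5 averaged -1.32 ± 0.065 (SD). Replicate 2 of the arrays of D. simulans and D. melanogaster RNA accounted for the remaining 3. It was highest for CysRS at 0.072, against -0.20 ± 0.047 (SD, n = 5) without it, highest for LeuRS at 0.79, against 0.06 ± 0.103 (SD, n = 5), and lowest for beta-PheRS at -0.45, against 0.06 ± 0.079 (SD, n = 5). The part of these arrays in each model value is covered by leaving each array out in turn.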

How the results depend on the processing

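No paired analysis was possible because replicate numbers follow the order of deposition and pair no arrays across groups. Title numbers do group arrays, mostly within a pair of RNAs, and were fitted as a random effect (consensus correlation 0.159), which left 7 members called lower than the parental mean, LeuRS-m being lost at -0.24, and changed no other call of a member. Leaving out each of the 18 arrays in turn kept the numbers of members called lower in the hybrid at 7 against D. melanogaster, 8 against D. simulans and 7 to 8 against the parental mean, and of members called lower in D. simulans than in D. melanogaster at 0 to 1. Scaling the arrays to a common spread moved the cytosolic median against D. simulans to -0.45. It called 3 members lower in D. simulans than in D. melanogaster, as it did 1450 of the 4753 genes and positions. LeuRS-m then stood at 0.068 against D. melanogaster. Title numbers 14 to 18 alone called 2 lower in D. simulans. Title numbers 1 to 8 alone put LeuRS-m at 0.18 against D. melanogaster. With each pair fitted on its own, beta-PheRS and the cytosolic median between the parents were both -0.026. The cause of these shifts was not tested. Requiring at least 1.5-fold left 4 members lower in each hybrid contrast (parental mean included), 3 below both parents and 0 higher in D. simulans. Over everything tested it left 2643 genes and positions against D. melanogaster, 2464 against D. simulans, 530 between the parents, 2559 against the parental mean and 2097 outside both parents, where the main model had 3983, 3907, 2223, 4052 and 3430. These totals join both directions, so they give no share to set beside the member counts. With deposited medians kept, the median of everything tested stood at -0.10 against D. simulans, and no member changed its call. With all 6 of 6 values required, GlnRS, LeuRS, LeuRS-m and IleRS could not be tested.

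With channel 2 over channel 1, members called higher in the hybrid numbered 7 against D. melanogaster, 8 against D. simulans and 8 against the parental mean, with 0 called lower or below both parents, and between the parents 3 were lower and 0 higher in D. simulans. The cytosolic medians became 0.65, 0.74, -0.070 and 0.70 in the order D. melanogaster, D. simulans, between the parents and parental mean. In that order GlnRS stood at 0.94, 1.18, -0.25 and 1.06, CysRS at 0.89, 0.74, 0.15 and 0.82, and beta-PheRS at 0.87, 0.94, -0.070 and 0.91. AsnRS stood at 0.43, 0.97, -0.55 and 0.70, IleRS at 0.65, 0.48, 0.16 and 0.56, and LeuRS at 0.48, 0.57, -0.093 and 0.52. TyrRS stood at 0.40, 0.27, 0.13 and 0.33, and LeuRS-m at 0.092, 0.47, -0.38 and 0.28. List medians against the parental mean became 0.38 for the amidotransferase list, 0.92 for elongation and release, 0.03 for initiation, 0.80 for tRNA processing, -0.06 for cytosolic and 0.995 for mitochondrial ribosomal proteins, 0.16 for amino acid genes, 1.25 for germline, -1.96 for fat body, -1.07 for muscle and -0.51 for testis.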
